A study of Homo sapiens with 3 samples.

Results

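The cornified envelope genes of MCF10A cells, an immortalized human line grown from breast epithelium that does not form tumours, were read in 3 replicates of RNA-seq. The genes were chosen by symbol from GENCODE release 44. They are all protein-coding genes whose symbol starts with SPRR or LCE and a digit, plus 16 others, namely IVL, LORICRIN, FLG, FLG2, CNFN, CRCT1, EVPL, PPL, TGM1, TGM3, TGM5, CSTA, KLK5, KLK7, SPINK5 and CDSN. This gave 46 genes, of 20046 protein-coding genes and 62754 genes in the deposited table. All 3 replicates carried an empty Retro-X Tet-One vector with no gene of interest, were selected with puromycin and were harvested untreated, without the doxycycline that would induce the vector. They form 1 group of 1 line in batch 1, and libraries were prepared from 300 ng of RNA depleted of ribosomal RNA. Per the study's methods, cells grew in a medium with mammary epithelial supplements and cholera toxin. RNA was taken within the window that the study gives for exponential growth, so other growth states were not measured. The labels do not say that the replicates came from separate cultures, so the SD given here measures the spread between these samples, which may be technical.

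The cornified envelope is the protein shell that replaces the plasma membrane of keratinocytes at the end of squamous differentiation. Envoplakin and periplakin lay down a scaffold under the membrane, transglutaminases then crosslink involucrin, small proline-rich (SPRR) proteins, loricrin and late cornified envelope (LCE) proteins onto it, and kallikrein proteases later cut the junctions through which dead cells are shed. Most genes of the SPRR and LCE families lie side by side on chromosome 1 in the epidermal differentiation complex, which is known for being switched on in the upper layers of stratified epithelia. Breast epithelium is not stratified, and MCF10A cells carry markers of its basal layer.

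Values are given as TPM, reads per transcript length that the authors scaled to a sum of 1000000 in each replicate, which is meant to let genes be compared. The lengths used here make no allowance for the size of the sequenced fragments. How well the shortest genes, among them most SPRR and LCE genes, compare with long genes was therefore not tested. The number of reads behind each value was recovered from the TPM and the annotated gene length, and replicates 1, 2 and 3 held 15273329, 15446347 and 11166546 reads on annotated genes. Replicate 3 stood apart. The short non-coding RNA RN7SL1 took 4.93%, 5.66% and 15.1% of TPM in replicates 1, 2 and 3, and protein-coding genes averaging 10 TPM or more had a median log2 ratio of -0.24 in replicate 3 against the mean of the other replicates. The basal and epithelial markers were present in every replicate, with means of 6612 ± 890 TPM for the keratin gene KRT5, 4144 ± 618 TPM for KRT14 and 49.8 ± 6.15 TPM for TP63 (SD, n = 3 each). Of 13 markers of luminal hormone-responsive cells, leukocytes, endothelium, fibroblasts and melanocytes, only DCN, at 9.05 ± 0.300 TPM, and PECAM1, at 1.77 ± 0.190 TPM (SD, n = 3 each), had a mean at or above 1 TPM, while CDH5, LUM, PDGFRA, CD3E and MLANA were listed at 0 in every replicate.

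Of the 46 genes, 9 had a mean at or above 1 TPM, the level at which the study drew its line for an expressed gene. This is 19.6% of them, where 56.7% of all protein-coding genes passed. In every replicate 8 genes (17.4%) were at or above 1 TPM, against 55.2% of all protein-coding genes. A further 15 genes had reads in at least 1 replicate but a mean below 1 TPM, with at most 9 reads in all 3 replicates together, and 22 genes (47.8%) were listed at 0 in every replicate, against 26.2% of all protein-coding genes. A listed 0 is not taken here as a lack of expression. RPL24, a ribosomal protein gene that every cell uses, the lipid droplet gene PLIN2 and GRHL2, a transcription factor of epithelia, all chosen after their values were seen, were also listed at 0 in every replicate, although no other gene shares their canonical exons on the same strand. The 9 genes were CSTA, PPL, EVPL, TGM1, SPRR1B, LCE3D, CNFN, LCE1C and SPINK5. Of these, 6 were among the 11 genes outside the epidermal differentiation complex, a share of 54.5%, near the 56.7% of all protein-coding genes. The other 3 were among the 35 genes inside it, a share of 8.57%. In a bulk sample such as these, few cells with much RNA of a gene and many cells with little cannot be told apart.

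The genes are short, so both shares were also taken among short genes alone. The median length of the longest transcript was 718 bases over the 46 genes and 3324 bases over all protein-coding genes. Among the 31 genes under 1000 bases, 5 (16.1%) had a mean at or above 1 TPM and 18 (58.1%) were listed at 0. Among all 1560 protein-coding genes under 1000 bases, 22.1% had a mean at or above 1 TPM and 67.0% were listed at 0. At this length, the share of genes passing the cutoff was thus close to that of other short genes, and the share at 0 was the lower of both. The longer genes were not compared in this way. The part of length in the shares over all 46 genes was not tested.

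**Figure D1:**
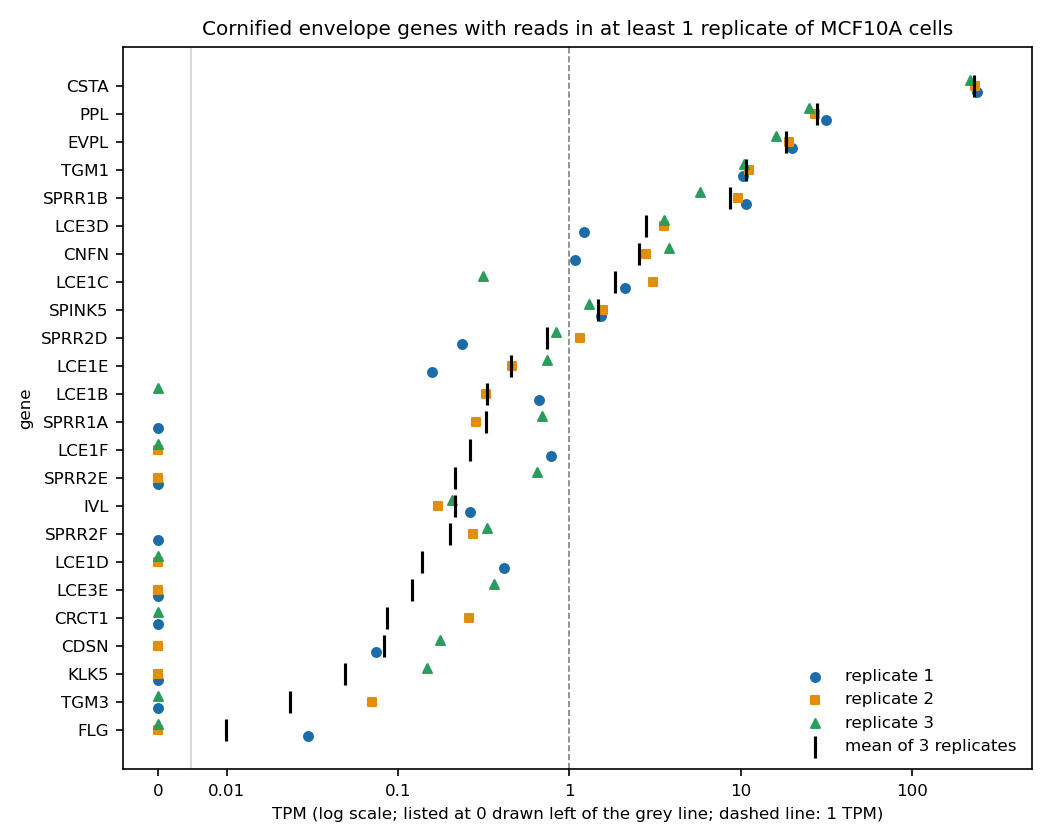
TPM of the 24 genes with reads, on a log axis, with 1 symbol per replicate and a black bar for the mean. CSTA stands alone above 100 TPM, and from SPRR2D downward the means lie below the dashed line at 1 TPM.

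CSTA (ENSG00000121552, chromosome 3 of hg38) encodes cystatin A, an inhibitor of cysteine cathepsins that is also built into the envelope. It was measured at 240 TPM in replicate 1, 231 TPM in replicate 2 and 218 TPM in replicate 3. The replicates lay close together, and the mean of 230 ± 10.8 TPM (SD, n = 3) was above that of 97.1% of protein-coding genes. CSTA held 74.7%, 74.0% and 75.7% of the summed TPM of all 46 genes in replicates 1, 2 and 3. It was the highest of the 46 in each replicate, at 8.29 ± 0.609 times PPL (SD, n = 3).

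The scaffold genes PPL and EVPL encode periplakin and envoplakin, plakin proteins that pair with each other under the membrane. PPL (ENSG00000118898, chromosome 16) was measured at 31.5, 27.1 and 24.9 TPM from 1035, 916 and 696 reads. Replicate 1 was the highest and replicate 3 the lowest, and the exact 95% Poisson intervals of these replicates, 29.6 to 33.5 TPM and 23.1 to 26.8 TPM, did not overlap. These are intervals of TPM before any scaling between replicates. The log2 ratio of replicate 3 to the mean of the others was -0.24 for PPL. Its median was also -0.24 over protein-coding genes averaging 10 TPM or more. EVPL (ENSG00000167880, chromosome 17) was measured at 19.9, 19.2 and 16.0 TPM, again with replicate 3 the lowest. PPL was above EVPL in every replicate, by 9.51 ± 1.90 TPM (SD, n = 3), with a ratio of 1.52 ± 0.0916 (SD, n = 3). The difference was larger than the spread between replicates. With 3 replicates an exact permutation test cannot reach a two-sided p below 0.25, so no order of genes was tested here.

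Among the transglutaminases of the cornified envelope list, the enzymes that form the crosslinks, TGM1 was measured and TGM3 and TGM5 were near 0. A relative outside this list, TGM2, was measured at 3.22, 4.65 and 3.87 TPM, with a mean of 3.91 TPM. TGM1 (ENSG00000092295, chromosome 14), the membrane-anchored enzyme of keratinocytes, was measured at 10.4, 11.2 and 10.5 TPM, so that the replicates differed little, with a mean of 10.7 ± 0.475 TPM (SD, n = 3). TGM5 was listed at 0 in every replicate, and the limit of 3 reads stood at 0.236 TPM in the shallowest. TGM3 had 1 read, in replicate 2. Its value is uncertain, because 96.6% of its canonical transcript is shared on the same strand with ENSG00000286022, an annotated protein-coding gene that was itself listed at 0 in every replicate, and how reads of both genes were counted is not stated.

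The SPRR genes encode short proline-rich proteins that bridge other components of the envelope. Of 11 SPRR genes, SPRR1B was the only gene with a mean at or above 1 TPM, 4 others had reads and 6 were listed at 0. SPRR1B (ENSG00000169469, chromosome 1) was measured at 10.8, 9.57 and 5.78 TPM from 35, 32 and 16 reads. Replicate 3 was the lowest, with a 95% interval of 3.31 to 9.39 TPM that overlapped those of replicates 1 (7.50 to 14.97 TPM) and 2 (6.55 to 13.5 TPM). The mean was 8.71 ± 2.60 TPM (SD, n = 3), which differed from TGM1 by less than the spread between replicates (1.98 ± 2.56 TPM, SD, n = 3). SPRR1A, the closest relative of SPRR1B, had 0, 1 and 2 reads. With all replicates added, SPRR1B had 83 reads and SPRR1A 3, a ratio per length of 29.0 with an exact 95% interval from 9.57 to 143 that covers counting error only. Of the 50-base words of SPRR1B, 8.25% also occur in SPRR1A.

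The SPRR2 genes are near copies of each other. SPRR2D was on both sides of the cutoff, at 0.238, 1.16 and 0.838 TPM from 1, 5 and 3 reads, SPRR2E had 2 reads and SPRR2F 2 reads in all, and SPRR2A, SPRR2B and SPRR2G were listed at 0. Of the 50-base words in the longest transcript of SPRR2A, 34.4% also occurred in another gene, and for SPRR2B and SPRR2D the shares were 32.4% and 26.8%. Reads from such stretches cannot be assigned to 1 gene, so the split among SPRR2 genes is uncertain. Added together, the 6 SPRR2 genes came to 0.238, 1.43 and 1.82 TPM, below SPRR1B in every replicate. SPRR3, SPRR4 and SPRR5 were listed at 0 in every replicate, and none of the words of SPRR3 and SPRR4 occurred in another gene.

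SPRR1B and SPRR1A, and likewise LCE3D and LCE3E, are pairs of close relatives in which 1 gene was measured above 1 TPM and the other was near 0. Their promoters, 250 bases before to 50 bases after the start in RefSeq on GRCh38.p14, are shown 5′ to 3′ on the strand of the gene to let the pairs be compared. Capitals mark 2 motifs searched on either strand. One is the TATA box, spelled TATAAA. The other is the site of AP-1 factors, spelled TGANTCA. They stand at chr1:153030953-153031252 on the plus strand, chr1:152983831-152984130 on the plus strand, chr1:152580467-152580766 on the minus strand and chr1:152566731-152567030 on the minus strand, in the order given.
SPRR1B: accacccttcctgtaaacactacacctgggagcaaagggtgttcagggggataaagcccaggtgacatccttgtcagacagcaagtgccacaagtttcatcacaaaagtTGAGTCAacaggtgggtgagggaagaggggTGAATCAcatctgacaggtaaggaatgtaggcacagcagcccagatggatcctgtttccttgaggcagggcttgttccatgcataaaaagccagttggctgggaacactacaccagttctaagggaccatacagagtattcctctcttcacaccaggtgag
SPRR1A: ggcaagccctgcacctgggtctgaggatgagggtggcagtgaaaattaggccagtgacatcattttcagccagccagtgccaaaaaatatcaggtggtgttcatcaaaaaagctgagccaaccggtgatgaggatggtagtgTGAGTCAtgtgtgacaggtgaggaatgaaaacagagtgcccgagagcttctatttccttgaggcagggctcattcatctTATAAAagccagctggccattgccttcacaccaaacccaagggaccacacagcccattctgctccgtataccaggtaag
LCE3D: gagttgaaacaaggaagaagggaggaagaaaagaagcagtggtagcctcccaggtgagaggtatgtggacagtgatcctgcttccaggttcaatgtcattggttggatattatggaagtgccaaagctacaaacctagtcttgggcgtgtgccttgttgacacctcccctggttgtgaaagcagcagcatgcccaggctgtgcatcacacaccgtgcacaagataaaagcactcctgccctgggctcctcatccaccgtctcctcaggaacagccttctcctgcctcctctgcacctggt
LCE3E: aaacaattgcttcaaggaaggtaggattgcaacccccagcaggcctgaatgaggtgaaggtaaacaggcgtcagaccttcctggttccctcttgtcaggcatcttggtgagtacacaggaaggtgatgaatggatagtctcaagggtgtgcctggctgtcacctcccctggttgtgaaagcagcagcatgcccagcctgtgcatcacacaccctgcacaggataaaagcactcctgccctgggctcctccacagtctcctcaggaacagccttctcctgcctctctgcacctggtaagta
In a global alignment, 66.5% of the columns were identical between SPRR1B and SPRR1A and 70.5% between LCE3D and LCE3E. The SPRR1B promoter holds 2 AP-1 motifs, which start 141 and 111 bases before the transcription start, and no TATAAA. The SPRR1A promoter holds 1 AP-1 motif, 108 bases before the start, and 1 TATAAA, 29 bases before it. Neither motif occurs in the promoters of LCE3D and LCE3E. RefSeq promoters were found for 38 of the 46 genes, and a gene with several was counted once if any held the motif. AP-1 motifs occurred in 6 of 9 SPRR promoters and 0 of 18 LCE promoters, where 7.71% of all 35116 promoters of this length hold one. TATAAA occurred in 8 of 9 SPRR and 9 of 18 LCE promoters, where 11.5% of all promoters hold it. A motif is a match of letters only and was not tested for binding.

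The LCE genes encode small proteins that are added late to the envelope. Of 19 LCE genes, 2 had a mean at or above 1 TPM, 5 others had reads and 12 were listed at 0. LCE3D (ENSG00000163202) was measured at 1.22, 3.56 and 3.58 TPM from 4, 12 and 10 reads. Replicate 1 was the lowest, but its 95% interval of 0.332 to 3.12 TPM overlapped those of the other replicates. LCE1C (ENSG00000197084) was measured at 2.12, 3.09 and 0.311 TPM from 8, 12 and 1 reads. It fell on both sides of the cutoff, with replicate 3 below it, and its mean of 1.84 ± 1.41 TPM (SD, n = 3) had an SD close to the mean. Together with SPRR2D it made 2 of 46 genes (4.35%) with replicates on both sides of 1 TPM, where 2.84% of all protein-coding genes had this.

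The LCE genes are numbered in groups of similar sequence, and their reads were unevenly spread over these groups. Of 6 LCE1 genes, 5 had reads, and the group summed to 4.15, 3.88 and 1.06 TPM in replicates 1, 2 and 3, with replicate 3 the lowest. Of 5 LCE3 genes, LCE3D and LCE3E had reads, with 26 and 1 reads in all. The ratio per length of LCE3D to LCE3E was 25.8, with an exact 95% interval from 4.23 to 1056, and 13.7% of the words of LCE3D also occur in LCE3E. All 4 LCE2 genes, LCE2A, LCE2B, LCE2C and LCE2D, and also LCE4A, LCE5A, LCE6A and LCE7A were listed at 0 in every replicate. For LCE2C and LCE2B, 27.8% and 23.8% of the words were shared with another gene, while for LCE2A none was.

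**Figure D2:**
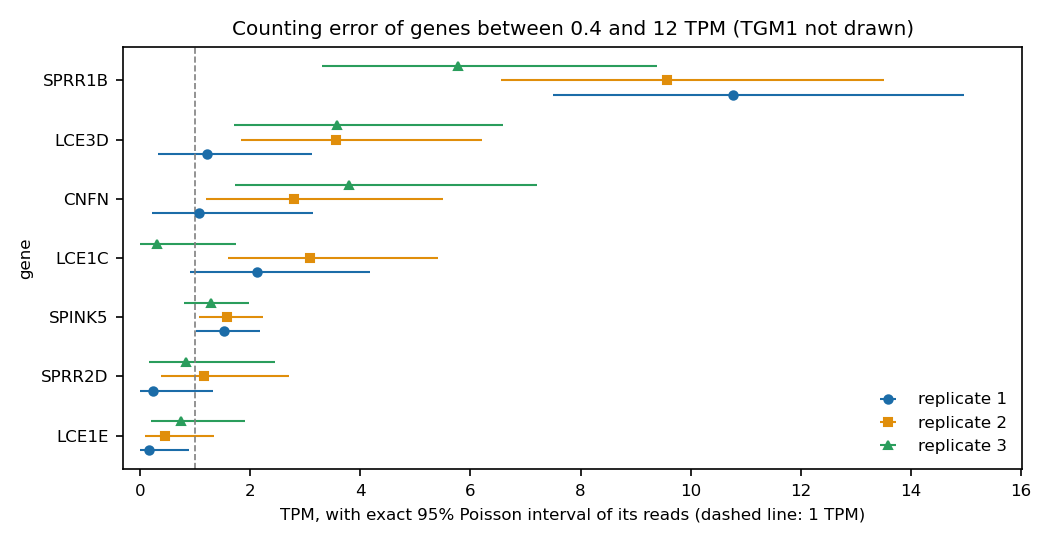
TPM per replicate of genes with means between 0.4 and 12 TPM, other than TGM1, with the exact 95% Poisson interval of the reads. The intervals of the replicates overlap for each gene drawn, and those of SPRR1B lie above the dashed line at 1 TPM in every replicate.

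Of the genes of other crosslinked proteins, CNFN had a mean above the cutoff and the classical markers of terminal differentiation did not. CNFN (ENSG00000105427, chromosome 19), the gene of cornifelin, was measured at 1.08, 2.79 and 3.79 TPM from 3, 8 and 9 reads, with a mean of 2.55 ± 1.37 TPM (SD, n = 3). The 95% interval of replicate 1, 0.222 to 3.14 TPM, lay on both sides of the cutoff. CNFN differed from LCE3D by 0.231 ± 0.495 TPM (SD, n = 3), less than the spread between replicates. Involucrin, the early substrate of TGM1, is encoded by IVL (ENSG00000163207), which was measured at 0.265, 0.172 and 0.207 TPM from 3, 2 and 2 reads. All 3 replicates were alike and below the cutoff, and the upper end of the 95% interval was at most 0.774 TPM in any replicate. LORICRIN (ENSG00000203782), which encodes the most abundant envelope protein of the epidermis, was listed at 0, with limits for 3 reads of 0.458, 0.446 and 0.538 TPM in replicates 1, 2 and 3. CRCT1 had 1 read in all.

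The filaggrin genes FLG and FLG2 encode long precursors whose repeats bundle keratin filaments. FLG (ENSG00000143631), with a length of 12793 bases, had 2 reads in replicate 1 and none in the others, a mean of 0.00989 TPM. The 95% interval of replicate 1 ended at 0.107 TPM, and the limits of 3 reads in replicates 2 and 3 were 0.0433 and 0.0523 TPM. FLG-AS1 covers 12.4% of its canonical transcript on the opposite strand. FLG2 was listed at 0, with a limit of 0.0733 TPM in the shallowest replicate. For these long genes the data set a much lower limit than for the short SPRR and LCE genes.

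Among the genes of shedding, 1 inhibitor gene was above the cutoff and the proteases and their target were below it. SPINK5 (ENSG00000133710, chromosome 5), the gene of the LEKTI inhibitor of kallikreins, was measured at 1.52, 1.58 and 1.29 TPM from 29, 31 and 21 reads, a mean of 1.46 ± 0.151 TPM (SD, n = 3) that lay above the cutoff in every replicate. KLK5 (ENSG00000167754), a kallikrein that LEKTI inhibits, was listed at 0, 0 and 0.148 TPM from 1 read in replicate 3. KLK7 (ENSG00000169035) was listed at 0, with a limit of 0.340 TPM in the shallowest replicate. CDSN (ENSG00000204539), the gene of corneodesmosin, which these proteases cut, had 1, 0 and 2 reads. PSORS1C1 covers 93.7% of the canonical transcript of CDSN on the opposite strand and was itself at 2.56 ± 0.964 TPM (SD, n = 3). Since the use of strand in counting is not stated, the CDSN value is uncertain.

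Where a listed 0 is a count of 0, it allows up to 3 reads, which covers counting error only. In single replicates this limit was under 1 TPM throughout for 10 of the 22 genes. For 9 genes it was at or above 1 TPM in replicate 3 only, the shallowest, and for LCE3A, LCE3B and LCE3C in every replicate. The highest limits were those of LCE3A, the shortest of the 22 with 270 bases, at 2.06 to 2.49 TPM. With the reads of all 3 replicates added, a limit of 3 reads in all was under 1 TPM for each of the 22 genes, with 0.735 TPM for LCE3A as the highest.

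**Figure D3:**
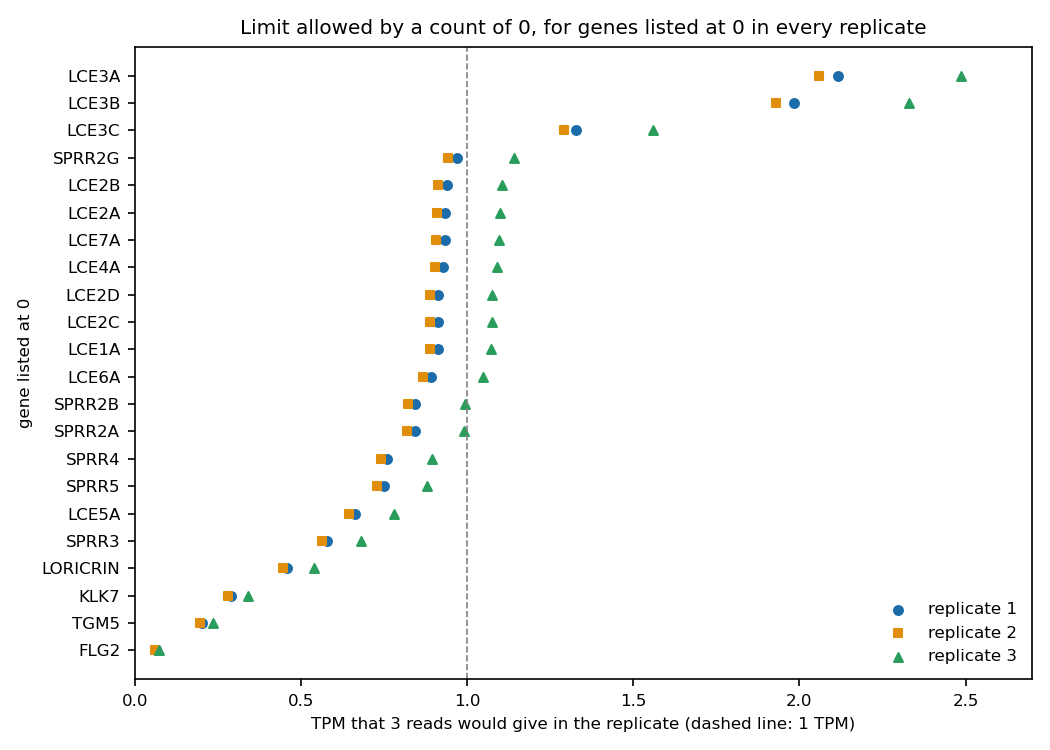
For the 22 genes listed at 0 in every replicate, the TPM that 3 reads would give in each replicate. The limits lie left of 1 TPM in all replicates for 10 genes, from FLG2 to SPRR2B, and reach 2.49 TPM for LCE3A in replicate 3.

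On the chromosome, the 35 genes of the complex lie between FLG and LORICRIN, at 152302165 to 153262124 of chromosome 1 on hg38. This stretch of 960.0 kb holds 41 protein-coding genes, and SPRR1B, LCE3D and LCE1C were the 3 with a mean at or above 1 TPM. None of the other 6 genes there passed. All 35 genes together came to 16.7, 19.2 and 13.5 TPM in replicates 1, 2 and 3, against 304, 293 and 275 TPM for the 11 genes elsewhere. In the wider stretch from S100A10 to S100A1, 12 more genes passed, each of them a gene of the S100 family on the flanks. S100A10, at 2828 ± 221 TPM, and S100A11, at 2547 ± 267 TPM (SD, n = 3 each), lie on 1 flank of the complex, and S100A9, at 411 ± 33.9 TPM (SD, n = 3), on the other. The highest values were also on that other flank, with S100A2 at 5411 ± 391 TPM and S100A6 at 3756 ± 134 TPM (SD, n = 3 each), both chosen after their values were seen.

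**Figure D4:**
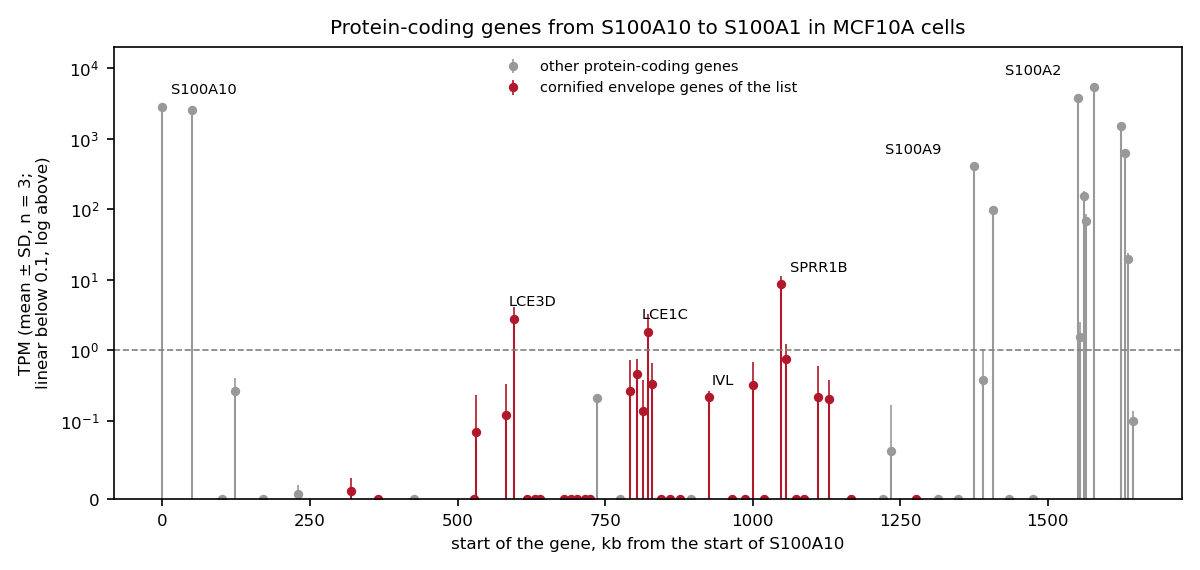
Mean TPM (± SD, n = 3) of the 63 protein-coding genes from S100A10 to S100A1 by their distance in kb from the start of S100A10, on an axis that is linear below 0.1 and logarithmic above. The listed genes, in red, fill the middle at low values, with SPRR1B the highest at 8.71 TPM, between flanks of S100 genes that reach over 1000 TPM.

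The spread between replicates of the 9 genes above the cutoff was set beside that of other genes. The median SD of log2(TPM + 1) was 0.17 over the 9 genes and 0.16 over the 11360 protein-coding genes with a mean at or above 1 TPM. Without replicate 3 these medians were 0.11 and 0.08, without replicate 2 they were 0.23 and 0.17, and without replicate 1 they were 0.12 and 0.17. Against counting error, the chi-square of the reads per degree of freedom was taken, after removal of the median ratio between replicates. It averages about 1 over genes whose replicates differ by counting alone. Single genes scatter widely about this average, and the median over such genes lies below it. The chi-square per degree of freedom was 4.60 for PPL, 2.62 for CSTA, 2.63 for LCE3D, 2.65 for CNFN, 2.97 for LCE1C, 1.16 for TGM1, 1.13 for SPRR1B, 0.296 for EVPL and 0.0214 for SPINK5. Its median was 1.33 over protein-coding genes with 15 to 150 reads in all and 2.82 over those with more. Relative to the mean of replicates 1 and 2, replicate 3 was higher for CNFN and LCE3D, with log2 ratios of 0.97 and 0.58, and lower for the other 7 genes. The lowest ratios were -3.07 for LCE1C and -0.81 for SPRR1B, and those of PPL, EVPL, CSTA, SPINK5 and TGM1 lay between -0.29 and -0.05. The higher share of RN7SL1 and the lower TPM of protein-coding genes in replicate 3 stand beside these values, and their part in them was not tested.

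Genes that accompany the envelope in stratified epithelia were read from 8 further lists. Their shares stand beside the 56.7% of all protein-coding genes with a mean at or above 1 TPM. All 8 basal keratinocyte genes had a mean at or above 1 TPM, led by KRT5, KRT14 and the integrin gene ITGA6 at 813 ± 100 TPM (SD, n = 3). Of 12 suprabasal, mucosal and stress keratins, 7 (58.3%) passed, a share near that of all protein-coding genes. The highest were KRT17 at 2669 ± 296 TPM, KRT6A at 2503 ± 334 TPM and KRT16 at 88.2 ± 15.5 TPM (SD, n = 3 each). The spinous keratins KRT1 and KRT10 and the late desmosomal cadherin DSG1, chosen after their values were seen, had means of 0.0913, 18.6 and 0.0280 TPM. Of 11 desmosome and corneodesmosome genes, 9 (81.8%) passed, led by DSP at 362 ± 47.3 TPM, DSG2 at 177 ± 15.2 TPM and PKP3 at 140 ± 23.0 TPM (SD, n = 3 each). The desmoplakin, cadherin and plakophilin they encode anchor keratin at cell contacts.

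The shares of the remaining lists were all below the 56.7% of all protein-coding genes. Of 16 transcription factors of keratinocyte differentiation, 7 (43.8%) passed and 2 were listed at 0, GRHL2 being 1 of these. Those that passed included CEBPB at 171 ± 26.6 TPM and KLF4 at 15.6 ± 1.46 TPM (SD, n = 3 each). Of 13 barrier lipid genes, 7 (53.8%) passed, among them the lipid transporter gene ABCA12 at 27.2 ± 2.66 TPM and UGCG at 20.6 ± 1.60 TPM (SD, n = 3 each). Of 19 other genes of the epidermal differentiation complex, 4 (21.1%) passed, all S100 genes. Of 25 other proteases and inhibitors of the cornified layer, 10 (40%) passed, led by SLPI at 423 ± 28.6 TPM, BLMH at 86.0 ± 9.89 TPM and ST14 at 70.6 ± 9.49 TPM (SD, n = 3 each). Of 13 other envelope substrates, transglutaminases and late differentiation genes, 5 (38.5%) passed and 2 were listed at 0, PLIN2 being 1 of these. The highest were SFN at 1634 ± 233 TPM, ANXA1 at 455 ± 21.4 TPM and DMKN at 55.5 ± 9.10 TPM (SD, n = 3 each).

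**Figure D5:**
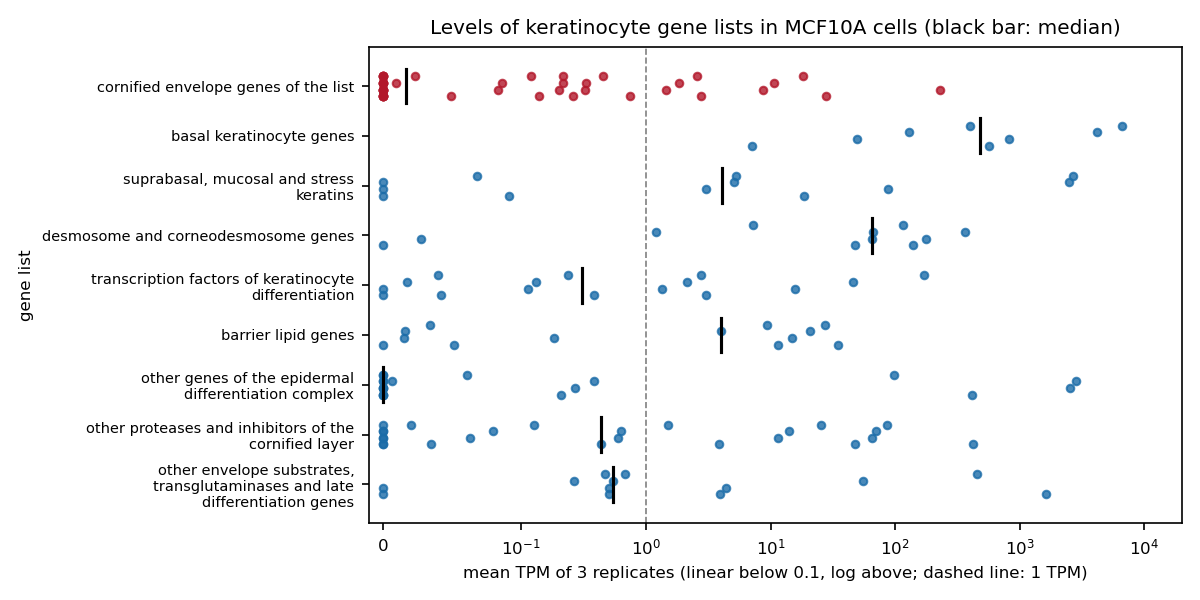
Mean TPM over 3 replicates of each gene in the cornified envelope list (red) and in 8 further lists (blue), with a black bar for the median, on an axis that is linear below 0.1 and logarithmic above. The basal keratinocyte genes all lie right of the dashed line at 1 TPM, and 9 of the 46 cornified envelope genes do.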

How the data were processed

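RNA was measured in 3 replicates of empty-vector MCF10A cells. Per the study's methods, Seq2science was used to map to hg38 and to count, and the authors deposited TPM per Ensembl gene. The submitters' processing notes name fastp, STAR, MultiQC and the builds hg38 and GRCh38.p14. The annotation release and the strand setting are not given in the sources used here. Every column of the table was matched to a replicate by library name.

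Gene types, lengths and positions came from GENCODE release 44 (62700 of 62754 genes found). Reads were TPM times length, over its smallest value above 0. The length was that of the longest transcript less 1 base per exon, and 100% of values were whole within 0.01. This rests on the smallest step being 1 read. The recovery was tested on simulated data made with the same lengths. This checks the calculation, but cannot show whether the lengths are those the authors counted with. No groups exist, so no test was run. Values are means and SD, with exact 95% Poisson intervals and a limit of 3 reads at 0, per replicate or over all replicates as named. The genes and lists were chosen with earlier results of these data known. Values per replicate are given for genes with a mean at or above 1 TPM and for IVL, LORICRIN, FLG, KLK5, KLK7 and others in the text chosen after their values were seen, and the 3 highest genes of each list are named, apart from 2 genes that are not reported here. Alternatives covered cutoff, pseudocount, filter, scaling, shared sequence and replicates. The tools were pandas 2.3.3, numpy 2.4.6 and, for intervals, scipy 1.17.1 under Python 3.11.15, with figures by matplotlib 3.10.9.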

Additional observations from a re-analysis of the deposited data

How the results depend on the processing

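No paired analysis was possible because the study has a single group of samples. Of the 46 genes, 9 had a mean at or above 1 TPM. The count became 10 with the line at 0.5 TPM, 7 with it at 2 TPM, 8 when every replicate had to pass, and 9 under both other scalings, by the median and without any 1 replicate. The number listed at 0 in every replicate was 22, between 24 and 25 without 1 replicate, and 17 among genes with at least 80% of 50-base words unique. The median of log2(TPM + 1) was 0.02. It was -3.10 with a pseudocount of 0.1 TPM, which shifts the scale by construction, 0.80 with genes under 0.1 TPM left out, 0.0281 with TPM rescaled to nuclear protein-coding genes, 0.0226 after division by the median ratio, 0.0695 among genes with unique words, and 0 to 0 without 1 replicate. The same rescaling, which raises every gene, took the summed TPM of SPRR genes from 10.2 to 12.5 and that of LCE genes from 5.93 to 7.30. Without 1 replicate they were 9.65 to 11.2 and 5.18 to 6.40 TPM. The ratio of PPL to EVPL was 1.49 to 1.57, the share held by CSTA 74.4% to 75.2%, and the median spread 0.11 to 0.23. The planned ratio of KLK7 to KLK5 is not given, since KLK7 is at 0. Depth limits all calls near 1 TPM for the short genes.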

Other observations

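Between FLG and LORICRIN, the annotation holds 12 genes that are not protein-coding, among them the pseudogenes SPRR2C, LCEP1, LCEP2, LCEP3 and LCEP4. Of the 12 genes, 11 were listed at 0 in every replicate. The exception was the long non-coding gene ENSG00000289062, with 6, 1 and 2 reads, or 0.885, 0.143 and 0.347 TPM, in replicates 1, 2 and 3. How often genes of these types are at 0 over the whole table was not counted. The 11 of 12 are therefore not read as a trait of this stretch. EVPLL, a gene on chromosome 17 whose sequence is in part shared with EVPL, was at 0.386, 0.375 and 0.113 TPM in replicates 1, 2 and 3. Of the 50-base words of EVPL, 2.26% occurred in other genes.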
